A study of Mus musculus with 4 samples.

Results

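The transcripts of 9 complement genes were measured by RNA-seq in wild-type mouse macrophages cultured from bone marrow: the C1q chains C1qa, C1qb and C1qc, the alternative pathway genes C3, Cfb and Cfp, and the anaphylatoxin receptors C3ar1, C5ar1 and C5ar2. They were taken by symbol from tables of 18256 genes, and all 9 were found. The M1 group held 2 libraries from cells given lipopolysaccharide (LPS, 100 ng/ml) with interferon-γ (20 ng/ml) for 24 h, and the M0 group held 2 libraries from cells left unstimulated for the same 24 h. All 4 cultures were first grown from marrow with 20 ng/ml recombinant MCSF, the growth factor that turns marrow progenitors into macrophages, in a 7-day protocol. Strain, sex, age and the number of animals behind a library are not given in the sources used here, nor whether MCSF stayed in the M1 medium, and no source ties the libraries of a group to separate animals. The p-values therefore measure only the spread between these libraries, which may be technical.

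Complement is a cascade of blood and tissue proteins that marks microbes and debris for uptake. C1q, built from chains encoded by C1qa, C1qb and C1qc, binds antibody or surfaces and starts the classical pathway, and macrophages are a main source of it. C3 is the protein on which all pathways meet. Factor B (Cfb) joins cleaved C3 to form the convertase of the alternative pathway, and properdin (Cfp) holds that convertase together. Cleavage of C3 and C5 releases the small peptides C3a and C5a, which act on the receptors C3aR (C3ar1) and C5aR1 (C5ar1). The second C5a receptor, C5aR2 (C5ar2), does not couple to G proteins.

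The 9 genes split by role. Of the 9, 3 were higher in M1 (C3, Cfb and Cfp) and 6 were lower (the 3 C1q chains and the 3 receptors), by the edgeR quasi-likelihood test with Benjamini-Hochberg adjustment over 12966 tested genes (adjusted p under 0.05). Over all tested genes 24.2% were called higher and 24.0% lower, 48.2% in all. Every member passed the filter on low counts, Cfb through its counts in M1. The 9 genes had a median log2 fold change of -0.40, against -0.02 over all tested genes. The libraries of the groups did not overlap for any of the 9 genes, as for 74.9% of tested genes. Together the 9 genes took 0.388% and 0.383% of all counts in the M1 libraries, against 0.356% and 0.420% in the M0 libraries. This share overlapped between groups while its make-up differed. After scaling by TMM factors, as for CPM throughout, the sum was 4258 and 4154 CPM in M1, against 3242 and 3876 CPM in M0. The scaled sum did not overlap between groups, so this result depends on the scaling. The RNA came from whole cultures, so fewer cells carrying a transcript and less of it per cell cannot be told apart.

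**Figure D1:**
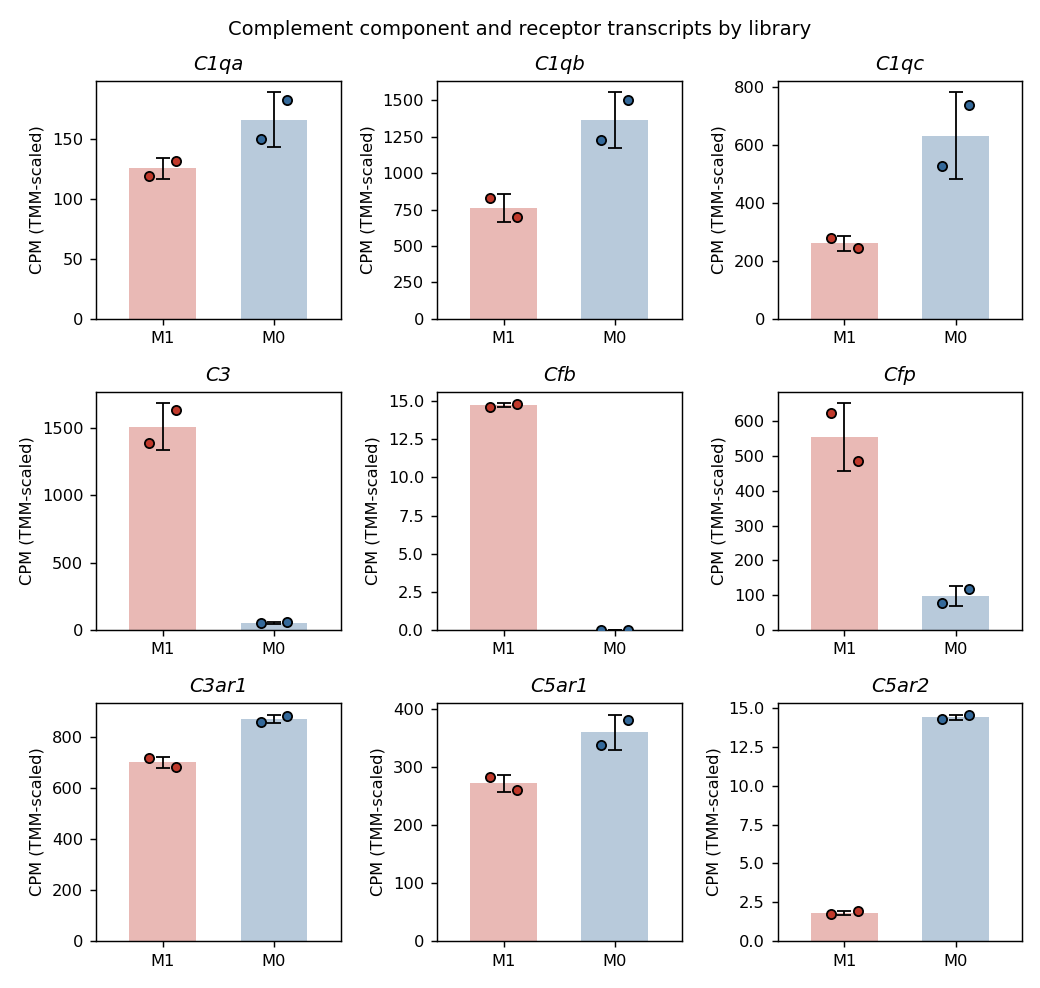
Depth-scaled counts (CPM) of each complement gene in the M1 and M0 libraries; bars are means, whiskers SD and points the 2 libraries of a group. C3, Cfb and Cfp stand higher in M1, C5ar2 stands far lower, and the C1q chains, C3ar1 and C5ar1 are lower by smaller amounts.

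The stretches just before the starts of 4 of these genes are shown because the data separate them: C3 and Cfp rose, C5ar2 fell the most and C1qb is the C1q chain with the highest level. RefSeq promoter windows were matched for 7 of the 9 members, all but C1qa and Cfb. Each line gives the 250 bases upstream of the RefSeq start in GRCm38.p6, 5′ to 3′ on the gene's own strand, which is the minus strand in all 4 cases. The windows are chr17:57228137-57228386 for C3, chrX:20931556-20931805 for Cfp, chr7:16244155-16244404 for C5ar2 and chr4:136886201-136886450 for C1qb. Capitals mark matches, on either strand, to the motifs searched.
C3: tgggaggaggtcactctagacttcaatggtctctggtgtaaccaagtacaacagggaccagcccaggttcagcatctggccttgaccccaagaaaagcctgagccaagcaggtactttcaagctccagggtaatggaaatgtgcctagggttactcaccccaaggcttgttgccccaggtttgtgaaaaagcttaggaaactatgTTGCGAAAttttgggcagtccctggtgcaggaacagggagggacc
Cfp: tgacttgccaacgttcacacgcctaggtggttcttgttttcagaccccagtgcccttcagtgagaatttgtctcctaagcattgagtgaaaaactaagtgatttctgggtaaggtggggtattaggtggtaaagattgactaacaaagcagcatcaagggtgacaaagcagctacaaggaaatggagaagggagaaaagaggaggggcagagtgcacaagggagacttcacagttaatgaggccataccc
C5ar2: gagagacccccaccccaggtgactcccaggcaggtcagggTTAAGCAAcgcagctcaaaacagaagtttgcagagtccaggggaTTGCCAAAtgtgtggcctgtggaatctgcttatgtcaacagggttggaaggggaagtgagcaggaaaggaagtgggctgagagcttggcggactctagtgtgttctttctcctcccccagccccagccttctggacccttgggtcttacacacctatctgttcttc
C1qb: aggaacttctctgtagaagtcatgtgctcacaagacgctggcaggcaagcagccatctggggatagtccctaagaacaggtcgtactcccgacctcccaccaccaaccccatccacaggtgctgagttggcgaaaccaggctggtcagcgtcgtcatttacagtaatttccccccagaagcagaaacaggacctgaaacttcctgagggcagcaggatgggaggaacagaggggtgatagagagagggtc
The motifs were the STAT site GAS (TTCNNNGAA), the interferon element ISRE (GAAANNGAA), an NF-κB site (GGGNNTTTC) and a C/EBP site (TTGCNNAA). Of 32851 mouse windows of the same length, 7.02% held the GAS letters, 7.13% the ISRE, 3.72% the NF-κB and 9.56% the C/EBP letters. The C3 window held a C/EBP match 45 to 38 bases before the start, and C/EBP factors are known to act at the human C3 promoter. The C5ar2 window held C/EBP matches at 210 to 203 and at 166 to 159 bases before the start. A second RefSeq window of C5ar2 (chr7:16242332-16242581), which lies inside the annotated gene, held none. No match overlapped another. The Cfp and C1qb windows held none of these letters. The window of C3ar1, not printed, held an NF-κB match at 13 to 5 bases. The windows of C1qc and C5ar1, not printed, lie partly inside the annotated genes. That of C1qc held no match, and that of C5ar1 held an ISRE match at 66 to 58 bases. These are matches of letters in a window, not sites shown to be bound.

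C3 was the member with the largest rise among those counted in both groups. C3 (chromosome 17, 57203970 to 57228136 in GRCm38, 42 exon blocks in GENCODE M21) reached 1392 and 1635 CPM in the M1 libraries, against 46.8 and 57.8 CPM in the M0 libraries. Both M1 values lay far above both M0 values. The means were 1514 ± 172 CPM in M1 and 52.3 ± 7.80 CPM in M0 (SD, n = 2 libraries per group here and throughout), a 29.0-fold difference. The log2 fold change was 4.86 (SE 0.142, adjusted p = 4.66e-10), the 180th highest of the tested genes. Leaving out 1 library at a time gave 4.71 to 5.02.

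Cfb (chromosome 17, 34856374 to 34862518, 17 exon blocks), the protease of the alternative convertase, was counted only in M1. It had 238 and 241 counts in the M1 libraries (14.6 and 14.8 CPM) and 0 counts in both M0 libraries, where a group level up to 0.0787 CPM (3 counts over both libraries) cannot be told from 0. By the edgeR test of the counts, Cfb was higher in M1 (adjusted p = 2.11e-07). With M0 set at the floor of 3 counts, Cfb was at least 187-fold higher in M1, or at least 157-fold with library totals. Its level is uncertain, because Gm20547, an annotated gene on the same strand that runs through Cfb and its neighbour C2, shares 79.5% of its exon bases. How reads in the shared part were assigned is not given in the sources used here.

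Cfp (chromosome X, 20925454 to 20931555, 9 exon blocks), which encodes properdin, a positive regulator of the alternative pathway, had 623 and 487 CPM in the M1 libraries, against 76.9 and 118 CPM in the M0 libraries. The groups did not overlap, though the libraries of each differed from one another. The means were 555 ± 96.5 CPM in M1 and 97.5 ± 29.1 CPM in M0, a 5.70-fold difference (log2 fold change 2.51, SE 0.187, adjusted p = 8.32e-07). Without 1 library at a time the log2 fold change ran between 2.23 and 2.86. The liver is the main source of plasma C3 and factor B. Of the hepatocyte markers, Alb had 0 and 4 counts in the M1 libraries and 0 in both M0 libraries, and Apoa1 had 0 in all 4. Properdin is also carried by neutrophils. The summed level of 10 neutrophil markers was 357 to 382 CPM in M1 and 348 to 361 CPM in M0. Csf3r gave 233 and 246 CPM of this in the M1 libraries, and 108.1 and 108.2 CPM in the M0 libraries. Of the 9 markers tested, 2 were higher in M1 (Csf3r and Camp), 6 lower and 1 did not pass. Among the lower ones, Ltf had 4.74 and 5.47 CPM in M1, against 39.9 and 30.8 CPM in M0. S100a8, which did not pass, had 94.3 and 67.5 CPM in M1, against 83.1 and 98.3 CPM in M0. Ly6g, another neutrophil marker, had 0 counts in both M1 libraries and 4 and 6 counts in the M0 libraries. The part of hepatocytes and neutrophils in the levels of C3, Cfb and Cfp was not tested.

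The 3 C1q genes, which lie within 18675 bases of each other on chromosome 4, all fell, by unequal amounts. C1qc (136889804 to 136893065, 3 exon blocks) had 278 and 243 CPM in the M1 libraries, against 528 and 739 CPM in the M0 libraries. Its means were 260.2 ± 24.6 CPM in M1 and 634 ± 149 CPM in M0, 2.43-fold higher in M0 (log2 fold change -1.28, SE 0.147, adjusted p = 2.92e-05). The groups did not overlap, and M0 replicate 2 was the highest library.

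C1qb (136880129 to 136886187, 3 exon blocks) had 830.4 and 695 CPM in the M1 libraries, against 1229.7 and 1499.8 CPM in the M0 libraries. Its log2 fold change was -0.84 (SE 0.122, adjusted p = 0.000193). Again M0 replicate 2 stood highest and no M1 value reached an M0 value. C1qa (136895917 to 136898803, 3 exon blocks) had 119 and 132 CPM in the M1 libraries, against 149.7 and 182 CPM in the M0 libraries. The M1 libraries were lower by a smaller margin, with a log2 fold change of -0.40 (SE 0.117, adjusted p = 0.0147). The C1qa call was lost without M0 replicate 2 (log2 fold change -0.25, adjusted p = 0.223) and without M1 replicate 1 (-0.33, adjusted p = 0.0574). Those of C1qb and C1qc held whichever library was left out, with log2 fold changes of -0.97 to -0.68 and of -1.51 to -1.02.

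The balance of the C1q chain transcripts within a library, which no scaling factor can move, also differed. Per kb of exon, C1qc over C1qa was 1.26 and 0.993 in the M1 libraries, against 1.90 and 2.19 in the M0 libraries. The groups did not overlap, and the mean log2 ratio differed by -0.87 between M1 and M0. C1qb over C1qa was 6.67 and 5.05 in the M1 libraries, against 7.85 and 7.87 in the M0 libraries. C1qb over C1qc was 5.31 and 5.08 in the M1 libraries, against 4.13 and 3.60 in the M0 libraries. With 2 libraries a group an exact two-sided permutation test of such a ratio cannot go below p = 0.3333, so these are values without a call. C1qc made up 14.1% of the length-scaled C1q transcripts in each M1 library, against 17.7% and 19.8% in the M0 libraries.

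**Figure D2:**
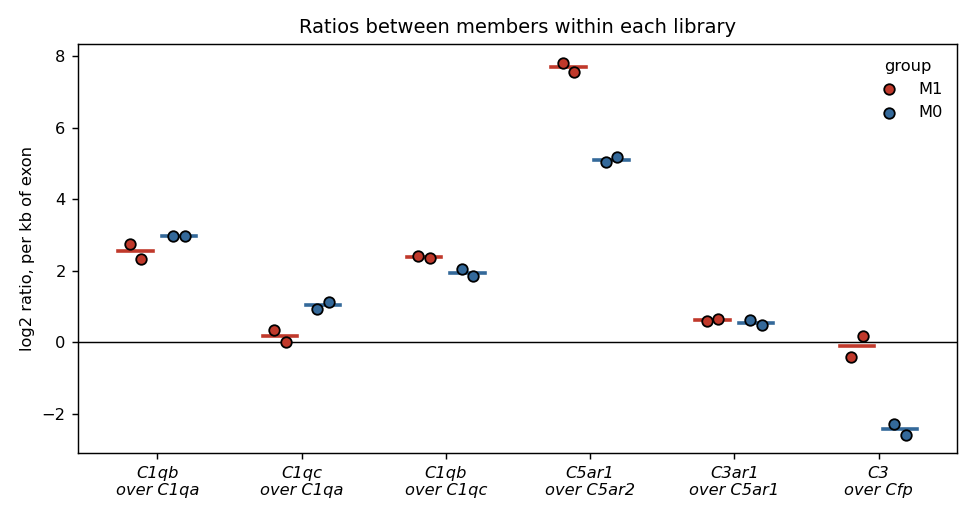
Log2 ratios of pairs of complement genes, per kb of exon, in each library; points are libraries and short lines the means of the M1 and M0 groups. C5ar1 over C5ar2 and C3 over Cfp stand higher in M1, C1qc over C1qa stands lower, and C3ar1 over C5ar1 overlaps between the groups.

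Among the receptors, C5ar2 fell the most. C5ar2 (chromosome 7, 16234585 to 16244154, 3 exon blocks) had 28 and 31 counts in the M1 libraries (1.72 and 1.91 CPM), against 298 and 251 counts in the M0 libraries (14.3 and 14.5 CPM). The groups were far apart and the libraries of each lay close together. The means were 1.81 ± 0.130 CPM in M1 and 14.4 ± 0.181 CPM in M0, 7.91-fold higher in M0 (log2 fold change -2.98, SE 0.253, adjusted p = 2.48e-06). It was the 322nd lowest of the tested genes, and without 1 library at a time the value ran from -3.05 to -2.91.

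C5ar1 lies 2588 bases from C5ar2 on chromosome 7 (16246743 to 16259540, 3 exon blocks) and fell by much less. It had 282 and 261 CPM in the M1 libraries, against 337 and 381 CPM in the M0 libraries, without overlap. The means were 271 ± 15.1 CPM in M1 and 359 ± 30.7 CPM in M0 (log2 fold change -0.40, SE 0.101, adjusted p = 0.00701). Leaving out M0 replicate 2 (adjusted p = 0.134) or M0 replicate 1 (adjusted p = 0.0520) ended that call. The length-scaled ratio of C5ar1 over C5ar2 was 227 and 189 in the M1 libraries, against 32.7 and 36.3 in the M0 libraries. It was 6.02-fold higher in M1 by the mean log2 ratio, with no overlap.

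C3ar1 (chromosome 6, 122847138 to 122856161, 2 exon blocks) had 717 and 685 CPM in the M1 libraries, against 859 and 884 CPM in the M0 libraries. The means were 701 ± 22.9 CPM in M1 and 871 ± 17.3 CPM in M0, with a log2 fold change of -0.31 (SE 0.0909, adjusted p = 0.0147). The groups did not overlap, but the call was lost without M1 replicate 2 (adjusted p = 0.0503), M0 replicate 1 (0.101) or M0 replicate 2 (0.128). C3ar1 over C5ar1, per kb, was 1.52 and 1.57 in the M1 libraries, against 1.52 and 1.39 in the M0 libraries, and this ratio overlapped between groups.

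Levels of the members were put in order per kb of exon, the only scale on which genes are compared here. The length is the union of a gene's exons in GENCODE M21, and the annotation used for counting is not given. The order between genes, the size of the ratios and the C1q percentages carry that uncertainty. In M1 the order was C1qb (701 ± 87.7 CPM per kb), Cfp (320 ± 55.6), C3 (294 ± 33.4), C3ar1 (163 ± 5.32), C1qc (135 ± 12.8), C1qa (121 ± 8.57), C5ar1 (106 ± 5.88), Cfb (5.22 ± 0.0441) and C5ar2 (0.510 ± 0.0364). Cfp and C3 overlapped there, as did C1qc and C1qa, and each other neighbour pair was separate. In M0 the order was C1qb (1254 ± 176 CPM per kb), C1qc (328 ± 77.4), C3ar1 (202 ± 4.02), C1qa (159.5 ± 22.0), C5ar1 (139.7 ± 11.9), Cfp (56.1 ± 16.8), C3 (10.2 ± 1.52), C5ar2 (4.05 ± 0.0509) and Cfb at 0 counts. C1qa and C5ar1 were the M0 neighbours that overlapped. C1qb headed both orders, and C3 ranked 3 of 9 in M1 and 7 of 9 in M0. C3 over Cfp was 0.754 and 1.13 in the M1 libraries, against 0.205 and 0.165 in the M0 libraries. The place of Cfb is uncertain because of the shared exon bases.

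**Figure D3:**
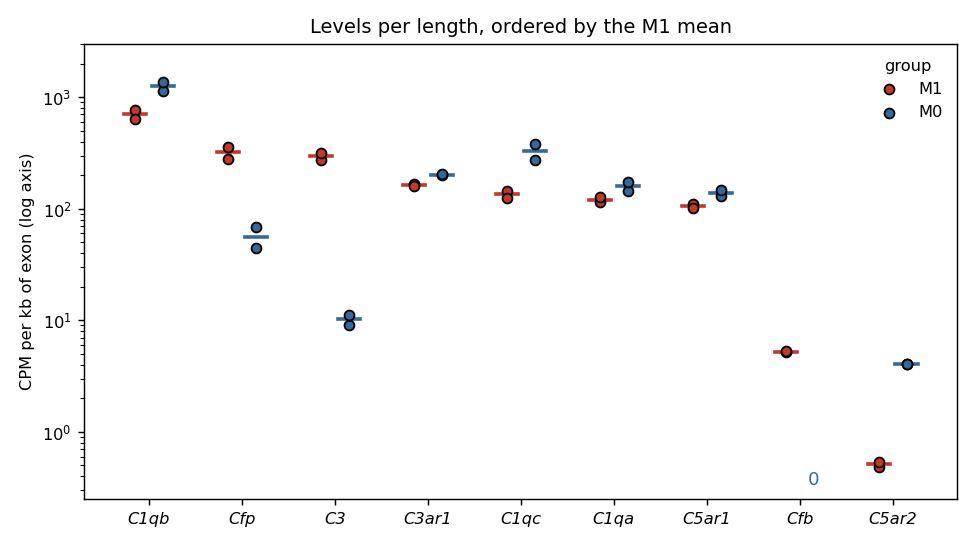
Levels of the complement genes in CPM per kb of exon on a log axis, ordered by the M1 mean; points are libraries, short lines group means, and a 0 marks Cfb in M0. C1qb is highest in both groups, and C3 and Cfp lie between C1qb and C3ar1 in M1 but below C5ar1 in M0.

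The rest of the complement system moved in both directions. A list of 57 other complement genes held 44 in the tables, of which 30 were tested. Of these 11 were higher in M1, 12 lower and 7 did not pass, with a median log2 fold change of -0.59. Over all tested genes 24.2% were called higher and 24.0% lower, with a median of -0.02. The counts of the smaller lists below stand beside the same shares.

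Of the 9 tested genes that start the classical and lectin pathways, 3 rose, 5 fell and 1 did not pass. C1ra, the protease that binds C1q and activates C1s, had 20.1 and 23.9 CPM in the M1 libraries, against 1.29 and 2.61 CPM in the M0 libraries (log2 fold change 3.52, adjusted p = 2.10e-06). C1ra thus stood apart from the C1q chains in direction. C1s1, the protease that cleaves C4 and C2, had 1.54 and 2.52 CPM in M1 against 0.0959 and 0.811 CPM in M0 (log2 fold change 2.20, adjusted p = 0.0400). Its call was lost without M1 replicate 2 (adjusted p = 0.189) or M0 replicate 1 (log2 fold change 1.32, adjusted p = 0.233), and M0 replicate 2, when left out, moved the value to 4.31. With library totals it missed the threshold (adjusted p = 0.0570).

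C2, the protease of the classical C3 convertase, had 3.38 and 4.61 CPM in the M1 libraries, against 1.39 and 0.753 CPM in the M0 libraries (log2 fold change 1.88, adjusted p = 0.00631). The call was lost without M0 replicate 2 (adjusted p = 0.0838), and C2 shares its locus with Gm20547 too. The lectin pathway protease gene Masp1 fell, at 0.246 and 0.431 CPM in M1 against 3.50 and 4.64 CPM in M0 (log2 fold change -3.56). So did the ficolin A gene Fcna, a lectin that recognises microbial sugars, at 7.82 and 6.40 CPM in M1 against 17.3 and 18.9 CPM in M0 (-1.35). Its relative Fcnb had 2 and 6 counts in the M1 libraries and 28 and 18 counts in the M0 libraries. The Fcnb call (log2 fold change -2.25, adjusted p = 0.0308) was lost whichever library was left out (adjusted p = 0.0504 to 0.205), with DESeq2 (0.0728) and with no filter on low counts (0.0679), and the value was -3.20 without M1 replicate 2. Colec12, a scavenger receptor with a collectin-type lectin domain, fell by 0.64 on the log2 scale. C4b, not tested, had 20 and 9 counts in the M1 libraries, above the 8 and 8 counts of the M0 libraries. C4a, with 0 and 4 counts in the M1 libraries and 12 and 23 counts in the M0 libraries, is near-identical to C4b and uncertain. Its call (log2 fold change -2.87, adjusted p = 0.0435) ended without M1 replicate 1 (-1.91, adjusted p = 0.232), M0 replicate 1 (-3.36, 0.146) or M0 replicate 2 (-2.16, 0.345), with DESeq2 (0.0715) and with no filter on low counts (0.0737), and was kept without M1 replicate 2 (-7.10). Masp2, another lectin pathway protease gene, was the one that did not pass.

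Of the terminal genes C8g alone was tested, at 0.800 and 0.984 CPM in M1 against 3.26 and 3.13 CPM in M0 (log2 fold change -1.83, adjusted p = 0.00708). It missed the threshold without M0 replicate 1 (0.0836) or M0 replicate 2 (0.0685). Of 10 tested regulators 3 rose, 2 fell and 5 did not pass. Cd55, the decay-accelerating factor that protects cells from convertases, had 6.46 and 9.66 CPM in the M1 libraries, against 0.671 and 2.78 CPM in the M0 libraries (log2 fold change 2.26, adjusted p = 0.00359). The M0 libraries set its size: leaving out M0 replicate 1 gave 1.53 and ended the call (adjusted p = 0.0632), and leaving out M0 replicate 2 gave 3.58. Cpd, a membrane carboxypeptidase counted in this list, had 1094 and 1334 CPM in M1 against 238 and 228 CPM in M0 (2.38). Whether Cpd acts on complement here was not tested. Cr1l, which encodes the mouse convertase inhibitor Crry, rose by 0.35 on the log2 scale (adjusted p = 0.0167). Its call held in the fit without M1 replicate 2 but in no other fit without a library (adjusted p = 0.0571 to 0.143), and it did not pass with library totals (0.10, adjusted p = 0.4499) or upper-quartile scaling (0.0718). Sez6l2 fell (-1.03, adjusted p = 0.0189) but missed the threshold when M0 replicate 1 (0.147) or M0 replicate 2 (0.0683) was left out.

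Other receptors of complement fragments and C1q divided as well, with 5 of 10 tested higher, 4 lower and 1 not past the threshold. Itgam, the α chain of complement receptor 3, rose to 491 and 478 CPM in the M1 libraries, against 104 and 136 CPM in the M0 libraries (log2 fold change 2.02). Itgax, the α chain of complement receptor 4, fell to 57.9 and 69.4 CPM in M1, against 181 and 161 CPM in M0 (-1.43). Vsig4, the macrophage receptor for C3b and iC3b, fell to 4.74 and 5.41 CPM in M1, against 40.2 and 43.4 CPM in M0 (-3.04). Itgb2, the β chain that Itgam and Itgax share, rose by 0.92. Genes of receptors for C3 fragments thus differed in direction.

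Of receptors linked to the uptake of C1q-bound material, Scarf1 rose (log2 fold change 1.77), as did the calreticulin gene Calr (1.14). Lair1, an inhibitory receptor that binds C1q, rose by 0.34 (adjusted p = 0.0214), a call that ended without M1 replicate 2 (0.0670), M0 replicate 1 (0.0726) or M0 replicate 2 (0.218) and with upper-quartile scaling (0.0859) or library totals (0.521). Lrp1 and Cd93 fell (-1.84 and -2.36), and C1qbp did not pass. Lrp1 had 482 and 728 CPM in the M1 libraries, against 2410.5 and 1920.4 CPM in the M0 libraries. Of 12 genes that carry signals of the anaphylatoxin receptors, such as G protein subunits and arrestins, 4 rose (Gnb1, Grk2, Pik3cg and Arrb2), 4 fell (Gng2, Arrb1, Grk6 and Plcb2) and 4 did not pass. The β-arrestin genes differed in direction, with log2 fold changes of -0.89 for Arrb1 and 0.49 for Arrb2, and the Arrb2 call was lost with library totals (adjusted p = 0.0729) and without M0 replicate 1 (0.0917). The calls of Grk6 and Plcb2 were lost without M0 replicate 1 (0.0552 and 0.263) or M0 replicate 2 (0.0601 and 0.0821), and that of Plcb2 also without M1 replicate 1 (0.122) or M1 replicate 2 (0.0639) and with DESeq2 (0.0687). Of 17 relatives of C1q in the C1q/TNF family 10 were in the tables and 3 tested, of which C1qtnf12 fell (log2 fold change -2.004) and 2 did not pass.

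**Figure D4:**
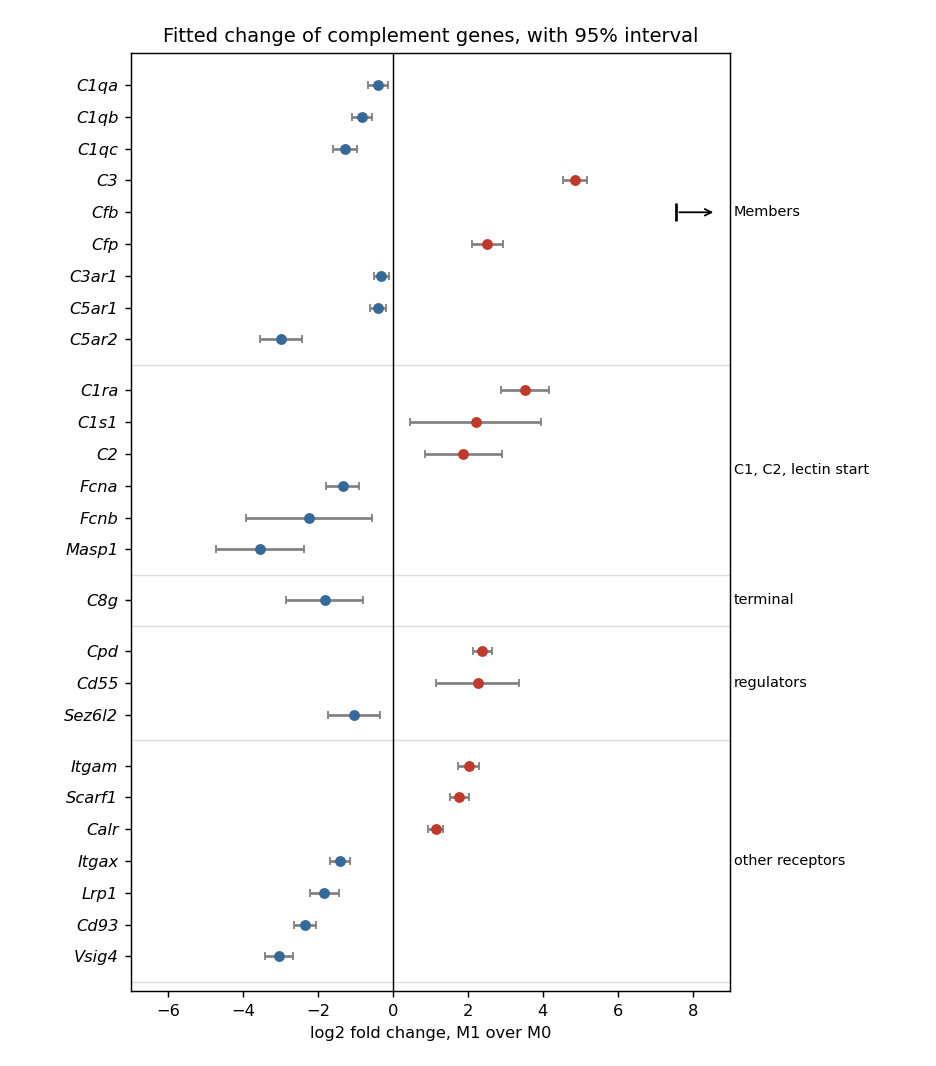
Log2 fold changes, M1 over M0, of the 9 members and of other complement genes named in the text that met the limits for naming. Points are fitted values and bars 95% intervals, with Cfb drawn as a lower bound at 7.55. C3, Cfb and Cfp lie to the right with C1ra, C1s1 and C2. The C1q chains, C3ar1, C5ar1 and C5ar2 lie to the left, C5ar2 farthest of the members. The other receptors lie on both sides.

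C1ra and C1s1 are also made by fibroblasts. The summed level of 7 stromal markers was 450.3 to 506 CPM in M1 and 689.6 to 712 CPM in M0. Most of this was Col1a1 and Col1a2, which fell (log2 fold changes -0.61 and -0.57). Of 6 stromal markers tested, 4 were lower and 2 higher, namely Dcn (1.70) and Col3a1 (1.41). The part of stromal cells in these results was not tested. All 10 macrophage markers were tested and summed to 29999 to 30487 CPM in M1 and 21386 to 23745 CPM in M0, with 5 higher, 3 lower and 2 not passed. Markers of other cells summed to less than those of macrophages. Summed levels were 4.55 to 5.47 CPM in M1 and 21.6 to 21.8 CPM in M0 for T and NK cells, nearly all of it Cd4, and Cd3e had 0 counts in 3 of the 4 libraries. Dendritic cell markers summed to 6.77 to 9.42 CPM in M1 and 8.63 to 10.1 CPM in M0. Of 5 tested, 2 were higher in M1 (Ccr7 and Xcr1) and 3 lower (Cd209a, Siglech and Zbtb46). Those of B cells summed to 1.23 to 3.82 CPM in M1 and 4.46 to 5.08 CPM in M0. Mast cell markers summed to 1.11 to 1.91 CPM in M1 and 1.62 to 1.77 CPM in M0. Erythroid and megakaryocyte markers reached 59.8 to 75.1 CPM in M1 and 19.6 to 25.0 CPM in M0, mostly Pf4. Pf4 was called higher in M1 (log2 fold change 1.88) and Cd4 lower (-2.18). Which cells carried these transcripts was not tested. Library totals were 17838606 and 17633945 counts in M1, against 18987705 and 15921466 counts in M0. Replicate libraries were not copies of each other: their counts gave a chi-square per degree of freedom of 12.6 in M1 and 8.78 in M0.

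For each member the nearest profiles were sought among 8988 other genes with a mean of at least 10 CPM, by Euclidean distance between log2 levels (CPM plus 0.5) centred on each gene's mean over the 4 libraries. C3 was nearest to Bcl2a1a (distance 0.146) and Tnfsf10 (0.163), Cfb to Bcl2a1a (0.138) and F10 (0.194), and Cfp to Mndal (0.129) and Plaat3 (0.144). Bcl2a1a belongs to a family of near-identical copies, so its counts are uncertain. C1qa was nearest to Sppl2b (0.0706) and Mbd6 (0.0736), C1qb to the mitochondrial gene ATP6 (0.0212) and Phf1 (0.0531), and C1qc to Rogdi (0.0896) and Cpe (0.102). C3ar1 was nearest to Ptov1 (0.00961) and Mad2l1 (0.0190), C5ar1 to Zfp958 (0.0223) and Chmp1b (0.0344), and C5ar2 to Gpnmb (0.0280) and Kitl (0.0474). Over 4 libraries in 2 groups such distances mostly reflect the size of the group difference. The added 0.5 CPM lessens that size for C5ar2, which had 1.72 and 1.91 CPM in the M1 libraries. Gpnmb and Kitl had log2 fold changes of -2.66 and -2.86, against -2.98 for C5ar2. For Cfb, with 0 counts in M0, the added 0.5 CPM limits that size. Its neighbours Bcl2a1a and F10 had log2 fold changes of 5.06 and 4.84, below the Cfb lower bound of 7.55.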

How the data were processed

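The authors deposited 1 table of read counts per gene symbol for each of 4 libraries, with no header. Per the submitters' processing notes, Subread 2.0.1, featureCounts, DESeq2 1.30.1 and the mm10 build were used. The annotation, strand setting and handling of overlapping genes are not given in the sources used here. RNA was depleted of ribosomal RNA, per the labels' protocols. The members and gene lists were chosen with earlier results of these data known.

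Genes were filtered with filterByExpr (minimum count 10, minimum total 15), which left 12966 of 18256. M1 was compared with M0 by the quasi-likelihood test of edgeR 4.0.16 in R 4.3.3, with TMM factors, group as the only term, and Benjamini-Hochberg adjustment over all tested genes. Standard errors are the fold change over the root of F. CPM uses library totals times TMM factors. Exon lengths and coordinates come from GENCODE M21 (GRCm38, the assembly mm10 names). The floor of 3 counts covers counting error only, and the 95% intervals of fold changes come from the fit and include the spread between libraries. Other complement genes are named when called with at least 1 CPM, an absolute log2 fold change of at least 1 and no overlap of libraries. For each member the 2 nearest genes are named. Some genes of the lists are counted but not reported here by name. Single markers, the signalling genes, C1qtnf12 and other complement genes below these limits are named outside this rule and were chosen after their values were seen. Alternatives included limma 3.58.1 (voom), DESeq2 1.42.0, other scalings and filters, the replicate number as a block, thinning and each library left out. The test was also run on simulated data, with the dispersion estimated from these libraries, and its outcome is not reported here.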

Additional observations from a re-analysis of the deposited data

How the results depend on the processing

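All 9 members kept their direction under all 14 alternatives, and the calls of C1qb, C1qc, C3, Cfb, Cfp and C5ar2 held under each. Relative log expression, upper-quartile scaling, DESeq2, limma-voom, both filters and thinning left 3 members higher and 6 lower. Scaling by library totals shifted all tested genes by a median of -0.25 (log2) and called 2026 genes higher and 4776 lower, 29.8% of calls higher instead of 50.3%, against 3140 and 3108. Upper-quartile scaling shifted it by -0.10. Members still passed with library totals, C3ar1 at -0.57 and C3 at 4.61. Leaving out 1 library at a time gave 1691 to 2965 genes higher and 1463 to 2854 lower, 3 to 5 members lower, and 7 to 10 of the other complement genes higher. These fits have fewer samples, and where 1 library stands alone it is assumed to vary like the other group. Same-numbered libraries did not deviate together (correlation -0.11 across genes), so the numbers are not taken as pairs. With the replicate number as a block 2957 genes were higher and 2975 lower, and 5 members stayed lower, since C3ar1 missed the threshold (adjusted p = 0.0615), as did Plcb2 (0.0700). With the crossed pairing, chosen after seeing the data, 3648 were higher and 3627 lower. C5ar2 rests on 28 and 31 counts in M1, and Cfb on 0 in M0, which limits the size of their folds.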
